A study of Homo sapiens with 33 samples.

Results

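The comparison set RNA of the sorted fraction S4 against RNA of the fraction S3 in HepG2, a long-established line from a human hepatocellular carcinoma. It used 4 of the 33 samples of the series, which were replicates 2 and 3 of S4 and replicates 2 and 3 of S3, with differences taken between libraries of the same replicate number. The members were chosen by the fraction named in the sample titles, and no measured value was used. The study collected cells at separate stages of the cell cycle and profiled their replication timing and their RNA together. Its RNA libraries came from G1, S1, S2, S3, S4 and G2, with 2 libraries per fraction, and from bulk cells. For both groups the labels name only the cell line, with no genetic change and no treatment. The labels give neither the gates of the sort nor separate cultures, so p-values measure how these libraries spread, and that spread may be technical. They name nuclear RNA as the molecule and a low-input stranded total RNA kit for the sorted libraries. The question that the comparison addresses is which RNAs differ over the last step within S phase, read as the order of the fraction names.

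During S phase a cell copies its DNA once, and the proteins that package and copy DNA are in demand while forks run. Histone genes of the replication-dependent class and enzymes of nucleotide synthesis are known for high expression in S phase, whereas regulators of mitosis accumulate through late S phase and G2 under factors that bind cell cycle elements in their promoters. CCNB1 encodes cyclin B1, which activates the mitotic kinase, and PTTG1 encodes securin, which holds separase inactive until anaphase. RRM2 encodes the small subunit of ribonucleotide reductase, which makes deoxynucleotides.

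Promoter sequences are shown for members from both sides of this picture, 2 mitotic genes higher in both S4 libraries, the replication gene with the lowest S4 level relative to S3, and 2 histone genes lower in both S4 libraries. Each is the 150 bases before the annotated start in RefSeq (GRCh38.p14), 5′ to 3′ on the strand of the gene, and capitals mark matches, on either strand, to the 6 motifs described after them. H2BC8 and H4C4 were picked for display after their values were seen. CCNB1, PTTG1 and RRM2 come from a fixed set of cell cycle and liver genes and are also described by their values. Other mitotic genes of that set, such as PLK1 and CENPA, went opposite ways in the 2 replicates. Of 52 replication-dependent histone genes tested, 15 were higher in S4 in replicate 2 and 30 in replicate 3. None of the genes shown was called for S4 against S3.
CCNB1 (chr5:69167000-69167149, plus strand): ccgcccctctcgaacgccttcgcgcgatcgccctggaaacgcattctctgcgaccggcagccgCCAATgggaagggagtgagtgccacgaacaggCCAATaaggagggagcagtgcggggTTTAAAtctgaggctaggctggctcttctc
PTTG1 (chr5:160421705-160421854, plus strand): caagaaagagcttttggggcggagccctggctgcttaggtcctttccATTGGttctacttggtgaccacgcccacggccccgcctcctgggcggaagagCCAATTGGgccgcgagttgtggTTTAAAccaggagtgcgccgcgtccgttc
RRM2 (chr2:10122589-10122738, plus strand): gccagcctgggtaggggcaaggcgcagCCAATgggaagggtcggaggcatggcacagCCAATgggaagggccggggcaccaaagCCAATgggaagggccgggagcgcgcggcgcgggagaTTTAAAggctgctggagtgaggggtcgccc
H2BC8 (chr6:26216689-26216838, minus strand): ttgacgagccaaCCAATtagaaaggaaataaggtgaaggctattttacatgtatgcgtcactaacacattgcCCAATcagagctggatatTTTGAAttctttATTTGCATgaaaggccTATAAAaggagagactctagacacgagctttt
H4C4 (chr6:26189113-26189262, minus strand): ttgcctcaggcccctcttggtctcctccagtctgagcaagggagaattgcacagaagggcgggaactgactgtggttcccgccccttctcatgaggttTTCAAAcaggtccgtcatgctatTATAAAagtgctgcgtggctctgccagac

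CCAAT is the core of the element bound by NF-Y, TTTGAA is the common form of the cell cycle genes homology region, ATTTGCAT is the octamer and TATAAA is the core TATA box. In PTTG1 2 of the 3 CCAAT matches overlap each other on opposite strands. Over promoter entries of 300 bases (250 before the start to 50 after it), CCAAT was present in 36.6% of 15318 protein-coding genes and TTTGAA in 12.1%. Members of lists were counted among the genes tested. Of the 8932 genes tested with an entry, 37.7% held CCAAT and 9.79% TTTGAA. Of the spindle, kinetochore and cytokinesis genes with an entry, 39 of 53 held CCAAT and 34 held TTTGAA. The first motif was not particular to them: 41 of 50 replication-dependent histone genes and 13 of 16 cholesterol synthesis genes held it. It was also in 17 of 23 unfolded protein response genes and 21 of 39 replication fork and nucleotide genes. Cytosolic ribosomal protein genes held it in 20 of 58 and glycolysis genes in 5 of 16, below the share of all genes. Among mitotic entry regulators, 14 of 26 held TTTGAA, against 1 of 39 replication fork and nucleotide genes. Replication-dependent histone genes held it in 17 of 50. In the bases shown above it is marked in H2BC8 and H4C4 and not in CCNB1, PTTG1 or RRM2, where TTTAAA is marked. TTTGAA is only the common form of its element, so its absence does not show that other forms were absent. Among replication-dependent histone genes, 21 of 50 held the octamer and 36 held TATAAA, against 1.70% and 9.62% of all protein-coding genes. Of the genes tested, 1.41% held the octamer and 5.54% TATAAA. TTTNNCGC, an E2F-type core, was in 15 of 39 replication fork and nucleotide genes and 15 of 28 origin licensing and firing genes, against 8.94% of all. TTTAAA was in 6 of 26 mitotic entry regulators and in 9.56% of all. These matches are descriptions of the letters in a window, not binding sites.

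Levels below are TPM, a level per gene length and library, rescaled to the same total over the nuclear protein-coding genes of each library. Differences are S4 minus S3 in log2(TPM + 1), a scale that makes the changes of weakly expressed genes look smaller. Values are given for replicate 2, then replicate 3. The S3 libraries held 6128370 and 6204842 reads recovered from the steps of the deposited values, and the S4 libraries 8988715 and 18483394, so that S4 replicate 3 was 2.06 times as deep as S4 replicate 2. The median tested gene rested on 184 and 219 reads in S3 and on 272 and 682 in S4. Protein-coding genes made up 12.97% and 11.46% of the deposited TPM in S3 and 11.22% and 13.57% in S4. Hepatocyte markers were high in all 4 libraries (ALB was at 28455 and 13086 in S3 and at 29002 and 12429 in S4), except APOB, which stayed at or under 1.38. Markers of fibroblasts summed to 15.3 to 26.8, nearly all of it PDGFRB, and markers of endothelium to 12.1 to 16.8. The leukocyte list summed to 1357 to 3023, but LYZ alone held 1345 to 3007 of this, and PTPRC, its defining member, was at 0 in 3 libraries and at 0.324 in the other.

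No gene of 10792 tested was called for S4 against S3 at an adjusted p of 0.05 (0% called; limma with the replicate number as a term, smallest adjusted p 0.701). At an unadjusted p under 0.05 there were 707 genes (6.55%), of which 434 were higher in S4 (4.02%) and 273 lower (2.53%). Fitted with voom to the recovered reads, the count was also 0, with 719 genes at an unadjusted p under 0.05. Without the replicate term it was 0 as well, with 107. The libraries did not overlap for 1282 genes higher in S4 (11.9%) and 893 lower (8.27%). A p that misses the threshold does not show that levels were equal, and the median 95% interval of a gene reached 0.41 to either side of its difference, with 5.02% of genes beyond 1. Of all genes tested, 5% lay below a difference of -0.42 and 5% above 0.45.

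The 2 replicates shared little of their differences. Taken across genes (not independent of each other), the S4 minus S3 difference of replicate 2 and that of replicate 3 had a Pearson correlation of 0.089 and a Spearman correlation of 0.162, and 57.0% of genes had the same sign in both. Over the 2592 genes with a mean level of at least 100, the Pearson correlation was 0.234. The median difference was 0.018 in replicate 2 and 0.027 in replicate 3.

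**Figure D1:**
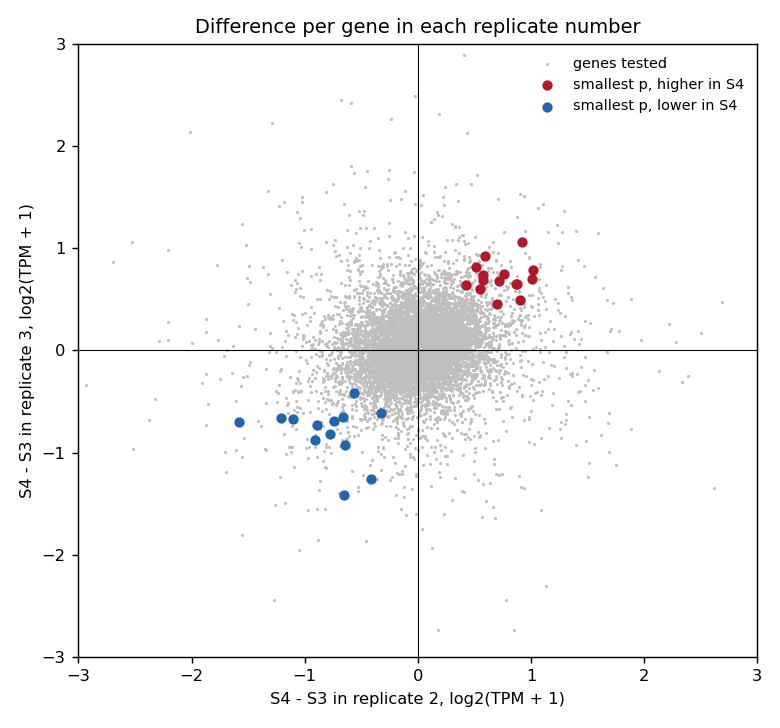
Each point is a gene, placed by its S4 minus S3 difference in replicate 2 (x axis) and replicate 3 (y axis), both in log2(TPM + 1), with 23 genes outside the axes. Coloured points are genes of smallest p in each direction, 15 higher and 13 lower, among genes whose libraries did not overlap and whose sign was the same in both replicates, a choice that puts them in 2 corners of a cloud with little slope.

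Mitotic entry regulators, the cyclins, kinases and phosphatases that start mitosis, were all tested (31 of 31) and none was called. The median difference was 0.046 over the list and 0.020 over all genes, with 18 members higher and 13 lower. By replicate the median was -0.18 in replicate 2, where 11 members were higher, and 0.32 in replicate 3, where 24 were higher. In 7 members both S4 libraries lay above both S3 libraries and in 1 both lay below (22.6% and 3.23%, against 11.9% and 8.27% of all genes).

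CCNB1 stood at 376 and 347 in S3 and at 440 and 530 in S4. Both S4 libraries were above both S3 libraries, with a difference of 0.42 ± 0.25 (SE; 95% interval -0.12 to 0.95; limma adjusted p 0.811). PTTG1, which stands in the chromosome axis list, was at 80.9 and 59.7 in S3 and at 102 and 119 in S4, again without overlap (0.66 ± 0.22, interval 0.18 to 1.13, limma adjusted p 0.722). AURKA, a kinase of the spindle poles, was at 216 and 171 in S3 and at 247 and 327 in S4, a difference of 0.56 ± 0.29.

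Others of the fixed set went opposite ways in the 2 replicates. PLK1, a kinase needed for mitotic entry and spindle assembly, was at 395 and 300 in S3 and at 349 and 437 in S4, so that it was lower in replicate 2 and higher in replicate 3 (0.18 ± 0.25). CENPA, the centromeric histone H3, was at 211 and 180 in S3 and at 155 and 216 in S4 (-0.09 ± 0.43). The same crossing was seen for CCNA2, the cyclin of S phase and G2, at 165 and 173 in S3 and 132 and 219 in S4. AURKB, MKI67, TOP2A, CDK1, CCNB2 and CDC20 also had opposite signs in the 2 replicates, with differences between -0.32 and 0.30.

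Spindle, kinetochore and cytokinesis genes (66 of 70 tested) had a median of 0.051, with -0.15 in replicate 2 and 0.30 in replicate 3, and 20 and 59 members higher. No member was called. CENPE, a kinetochore motor, was at 87.5 and 98.3 in S3 and at 105 and 178 in S4 (0.56 ± 0.27), and CENPF, a kinetochore protein, at 298 and 218 in S3 and 310 and 320 in S4 (0.30 ± 0.19). These were among 12 members with both S4 libraries higher (18.2%, against 11.9% of all genes). The 1 member with both lower (1.52%, against 8.27% of all genes) was SPC24, a kinetochore linker named after its values were seen. It was at 173 and 196 in S3 and 80.8 and 150 in S4 (-0.74 ± 0.32). The 26 condensin, cohesin and chromosome axis genes had a median of -0.039, with -0.21 in replicate 2 and 0.073 in replicate 3, and 0.20 without S3 replicate 2. The highest member beside TOP2A was HMGB2, a chromatin protein, at 460 and 350.4 in S3 and 385 and 354 in S4 (-0.12 ± 0.24). Of the highest spindle genes, TPX2 was at 605 and 593 in S3 and 520 and 690.1 in S4, and KIF22 at 529 and 653 in S3 and 375 and 660 in S4 (-0.24 ± 0.24).

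The sign of both mitotic medians rested on single libraries. Without S3 replicate 3 the median of mitotic entry regulators was -0.32 and that of spindle genes -0.39, and without S4 replicate 2 they were -0.060 and -0.12. CCNB1 itself was at -0.042 without S3 replicate 3 and at 0.88 without S3 replicate 2. In the other steps, side by side, the median of mitotic entry regulators was 0.60 from S1 to S2, 0.29 from S2 to S3 and -0.31 from S4 to G2. The last 2 steps share libraries with S4 against S3. By replicate, the step from S2 to S3 had a median of 0.58 in replicate 2 and 0.089 in replicate 3, and the step from S4 to G2 had -0.55 and -0.089.

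**Figure D2:**
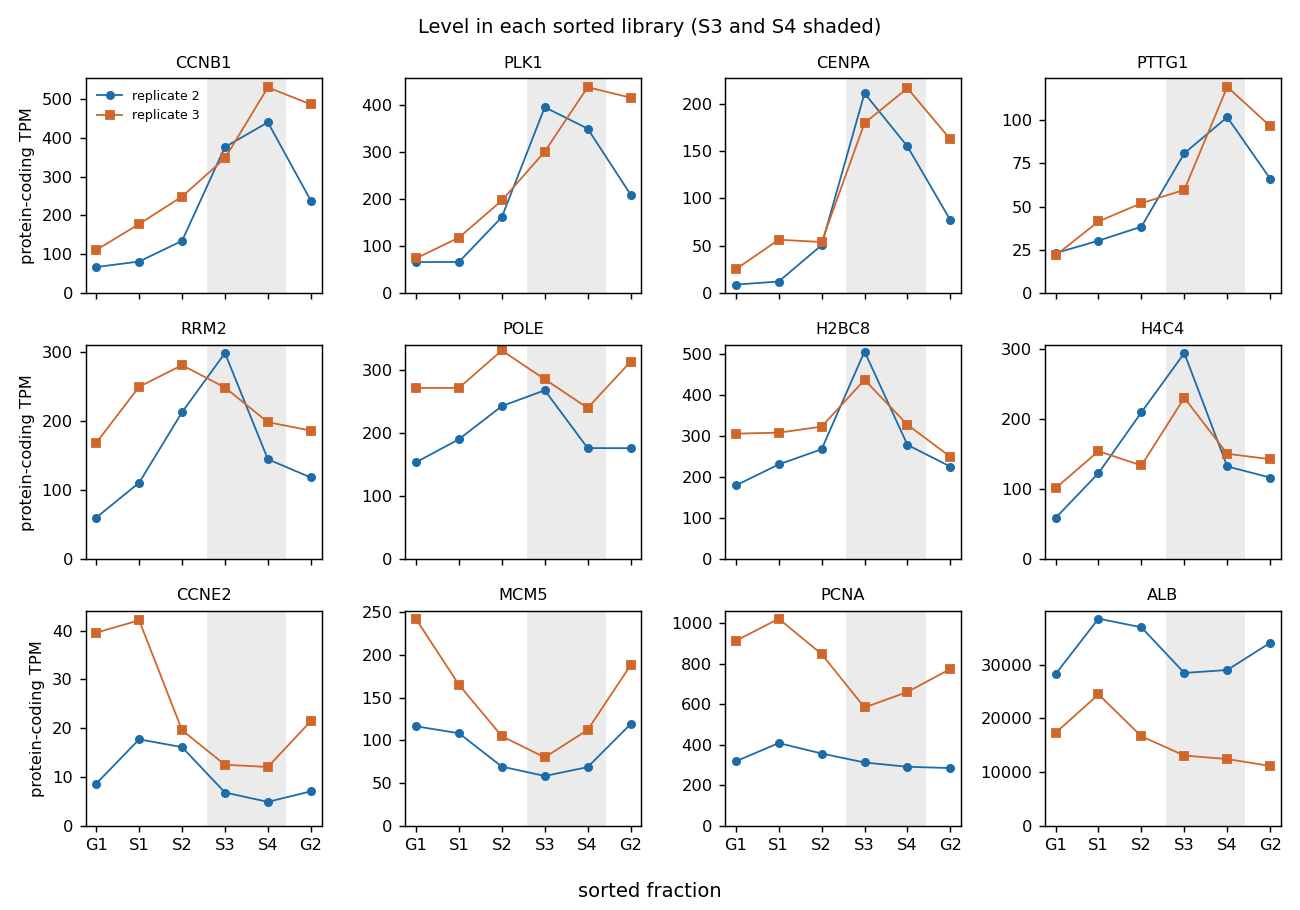
Level in protein-coding TPM (y axis, from 0, separate for each gene) in the 6 sorted fractions (x axis) for 12 genes, 1 line per replicate, with S3 and S4 shaded. CCNB1 and PTTG1 were highest in S4 in both replicates, PLK1 and CENPA were highest in S3 in replicate 2 and in S4 in replicate 3, and H2BC8 and H4C4 were highest in S3 in both.

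Replication fork and nucleotide genes, which encode polymerases, clamp and loader, single-strand binding proteins and enzymes that make deoxynucleotides, were tested for 43 of 44 members and none was called. The median difference was -0.21, with 34 members lower and 9 higher. It was -0.27 in replicate 2 and -0.087 in replicate 3. Both S4 libraries lay below both S3 libraries in 8 members (18.6%, against 8.27% of all genes). They lay above in 1 (2.33%, against 11.9% of all genes). Without S3 replicate 2 the median was 0.014.

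RRM2 was at 298 and 248 in S3 and at 145 and 198 in S4. Both S4 libraries were lower (-0.68 ± 0.30, interval -1.34 to -0.02, limma adjusted p 0.752), with -1.04 in replicate 2 and -0.32 in replicate 3. Named after their values were seen, POLE and DNMT1 followed: POLE, the catalytic subunit of the leading strand polymerase, was at 268 and 285 in S3 and 176 and 240 in S4 (-0.42 ± 0.16). DNMT1, the maintenance DNA methyltransferase, was at 129 and 136 in S3 and 88.3 and 110 in S4 (-0.42 ± 0.15). The other 5 without overlap were RPA3, TK1, POLD1, RPA2 and CHAF1A, with differences of -0.30 to -0.41. DUT, which removes dUTP, was the 1 member with both S4 libraries higher, at 38.3 and 31.7 in S3 and 43.7 and 60.7 in S4 (0.55 ± 0.24). PCNA, the sliding clamp, was at 313 and 584 in S3 and 291 and 660 in S4 and had opposite signs in the replicates (0.04 ± 0.14). NASP, a histone chaperone, was at 336 and 553 in S3 and 291 and 541 in S4 (-0.12 ± 0.12), where the replicates differed more than the fractions.

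Origin licensing and firing genes (36 of 37 tested) had a median of 0.0095 with 18 members higher and 18 lower. Median-ratio scaling turned this median to -0.011. MCM5, a subunit of the replicative helicase, was at 58.4 and 80.2 in S3 and 68.8 and 112 in S4, higher in both replicates but with overlap between the groups (0.36 ± 0.14, limma adjusted p 0.742). MCM3, its partner subunit, was at 565 and 1008 in S3 and at 552 and 1069 in S4 (0.03 ± 0.12). RECQL4, a helicase needed to start replication, was at 388 and 470.2 in S3 and 261 and 417 in S4 (-0.37 ± 0.20). CDC6, a licensing factor, was at 109 and 216 in S3 and 106 and 204 in S4 (-0.06 ± 0.17). CCNE1 and CCNE2, the cyclins of the G1 to S transition, were at 32.2 and 43.1 and at 6.83 and 12.5 in S3, and at 19.1 and 49.6 and at 4.91 and 12.1 in S4. The replicates differed more than the fractions for CDC6 and CCNE2.

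Replication-dependent histone genes were tested for 52 of 67 members, and none was called. These genes lie in clusters, many have near-identical copies, and values of single copies are uncertain where reads were divided among them. The median was -0.23 with 37 members lower and 15 higher, but it was -0.50 in replicate 2 and 0.077 in replicate 3. Their summed level was 16264 and 13987 in S3 and 11381 and 14073 in S4, so that the sum was lower in replicate 2 alone. In 13 members both S4 libraries were lower (25%, against 8.27% of all genes). In 3 both were higher (5.77%, against 11.9% of all genes). Without S3 replicate 2 the median was 0.13.

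H2BC8, an H2B gene, was at 506 and 437 in S3 and at 279 and 328 in S4. Both S4 libraries were lower in a gene that had been highest in S3 among the 6 fractions (-0.64 ± 0.18, interval -1.03 to -0.24, limma adjusted p 0.722). H4C4, an H4 gene, was at 295 and 231 in S3 and 133 and 151 in S4 (-0.88 ± 0.26, adjusted p 0.722 by limma), from 57 to 141 recovered reads per library. H2BC10 was at 116 and 87.0 in S3 and 35.1 and 37.6 in S4 (-1.44 ± 0.55), from 18 to 42 reads, and was the 1 gene called when the deposited TPM over all gene classes was fitted instead (-1.27, limma adjusted p 0.0084). Of the 2 members with the highest levels, H3C2 was at 1165 and 1397 in S3 and 715 and 1263 in S4 (-0.42 ± 0.20). H1-4, a linker histone gene, was at 1907 and 1961 in S3 and 1501 and 2601 in S4, on both sides of S3. The 10 replication-independent histone genes tested had a median of -0.051, with 0.047 without S3 replicate 2 and 0.076 without S4 replicate 3. Among them H1-10, a linker histone gene, was at 300.02 and 342 in S3 and 237 and 278 in S4 (-0.32 ± 0.15).

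Genes of homologous recombination, the Fanconi pathway and checkpoints (36 of 36 tested) had a median of -0.12, with -0.22 in replicate 2 and 0.057 in replicate 3. Without S3 replicate 2 it was 0.14. FANCA, a subunit of the Fanconi core complex, was at 340 and 340 in S3 and 262 and 293 in S4, and its libraries did not overlap (-0.29 ± 0.12). RAD54L, a recombination motor, was at 266 and 339 in S3 and 181 and 280 in S4 (-0.42 ± 0.19), lower in both replicates with overlap between the groups.

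**Figure D3:**
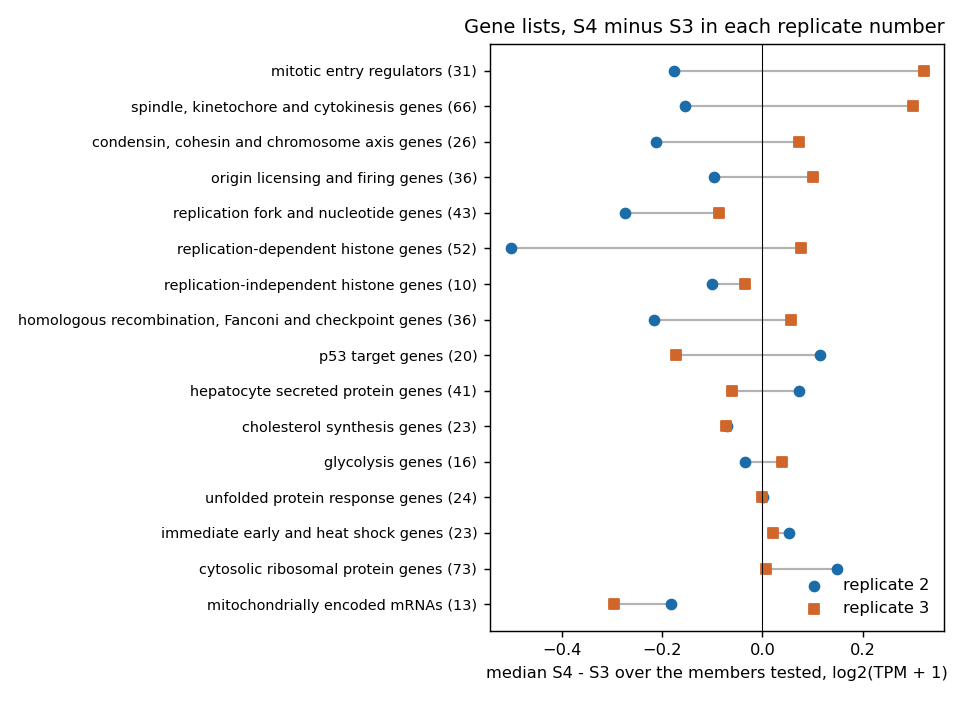
Median S4 minus S3 difference over the tested members of each list (x axis, log2(TPM + 1)), with a circle for replicate 2 and a square for replicate 3, and the number of members tested in parentheses. Mitotic entry, spindle and replication-dependent histone genes had medians below 0 in replicate 2 and above 0 in replicate 3. So had condensin, origin licensing, recombination and glycolysis genes. Replication fork, replication-independent histone, cholesterol synthesis and mitochondrial genes were below 0 in both.

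No member of the lists outside the cell cycle was called. Cytosolic ribosomal protein genes (73 of 79 tested) had a median of 0.090, with 51 higher and 22 lower. It was 0.15 in replicate 2, where 61 were higher, and 0.0066 in replicate 3, where 38 were higher. RPS12, a subunit of the small ribosomal particle, was at 1259 and 1349 in S3 and 1616 and 1634 in S4 (0.32 ± 0.14), without overlap, whereas RPS21 was at 1409 and 930 in S3 and 1500 and 855 in S4. Hepatocyte secreted protein genes (41 of 46 tested) had a median of -0.0017, with 20 higher and 21 lower. AFP, the fetal serum protein, was at 15537 and 8245 in S3 and 16687 and 7217 in S4, and APOA1, the main protein of high density lipoprotein, at 9942 and 6232 in S3 and 10196 and 6229 in S4. For these liver genes the replicate numbers stood further apart than the fractions.

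Cholesterol synthesis genes (23 of 25 tested) had a median of -0.082, and 18 were lower. Without S3 replicate 2 the median was 0.020. HMGCS1, which makes HMG-CoA, was at 665 and 794 in S3 and 633 and 744 in S4 (-0.08 ± 0.16), and its replicates stood further apart than the fractions. Glycolysis genes (16 of 21 tested) had a median of -0.027, unfolded protein response genes (24 of 26) 0.030, and immediate early and heat shock genes (23 of 28) 0.051. Their highest members differed by less than their SE in ENO1 (0.066 ± 0.11), GAPDH (-0.034 ± 0.14), PDIA4 (-0.034 ± 0.14), CALR (-0.13 ± 0.15), HSP90AA1 (0.051 ± 0.12) and HSP90AB1 (0.076 ± 0.13), which encode glycolytic enzymes and chaperones. Leaving out 1 library of S3 also turned the sign of smaller medians, to 0.078 for glycolysis without S3 replicate 2. Without S3 replicate 3 the median was 0.053 for hepatocyte secreted proteins, 0.045 for p53 targets and -0.024 for the unfolded protein response. It was -0.079 for immediate early and heat shock genes and -0.18 for origin licensing and firing. Leaving out 1 library of S4 turned signs as well. Without S4 replicate 3 the median was 0.058 for p53 targets and 0.021 for hepatocyte secreted proteins. Without S4 replicate 2 it was -0.040 for the unfolded protein response. In that fit it was -0.028 for immediate early and heat shock genes and -0.026 for origin licensing and firing.

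The p53 target genes (20 of 21 tested) had a median of -0.031 and held members on both sides. CCNG1, an atypical cyclin, was at 62.1 and 90.5 in S3 and 91.5 and 138 in S4 (0.58 ± 0.12, limma adjusted p 0.701). GDF15, a stress-induced cytokine, was at 635 and 716 in S3 and 514 and 454 in S4, without overlap and lower in both replicates (-0.48 ± 0.16). MDM2, the ubiquitin ligase of p53, was at 413 and 1036 in S3 and 393 and 892 in S4 (-0.14 ± 0.15).

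All 13 mitochondrially encoded mRNAs had a difference below 0, with a median of -0.22, but none was called. MT-CO3 was at 33687 and 11380 in S3 and 32873 and 8946 in S4 (-0.19 ± 0.40). MT-CO1, also a subunit of cytochrome c oxidase, was at 54440 and 15989 in S3 and 52535 and 13644 in S4 (-0.14 ± 0.42). Replicate 3 was far below replicate 2 in both fractions. Their summed level per 100 protein-coding TPM was 27.9 and 7.88 in S3 and 25.5 and 6.43 in S4. The values moved with the replicate number. With these mRNAs in the total used for scaling, limma again called 0 genes for S4 against S3, with 654 at an unadjusted p under 0.05. Any other part of theirs in other differences was not tested. In these sorted populations, fewer cells with an RNA and less of that RNA per cell cannot be told apart.

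Over all genes, those of smallest p among genes without overlap and with the same sign in both replicates are given as values, since none was called. On the higher side, MTHFSD was at 26.5 and 33.6 in S3 and 49.3 and 53.4 in S4 (0.76 ± 0.15), and NADK2, the mitochondrial NAD kinase, at 34.3 and 47.0 in S3 and 63.3 and 74.2 in S4 (0.76 ± 0.16). SP140L stood at 38.7 and 38.3 in S3 and 58.2 and 64.6 in S4 (0.66 ± 0.14). For these 3 the limma adjusted p was 0.701, and separation of the libraries was a condition of being listed. CDCA7, an activator of the remodeller HELLS, was at 170 and 235 in S3 and 244 and 414 in S4 (0.67 ± 0.15). PIK3R1, the regulatory subunit of PI3-kinase, was at 20.5 and 29.3 in S3 and 34.3 and 47.4 in S4 (0.70 ± 0.15). TUFT1, OXSM, ZNF514, FER, TSPAN7, TMEM37, DAPK1, PARP4 and PNPLA3 complete these 15 with CCNG1, and their differences ran from 0.53 to 0.99.

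On the lower side, NR1D1, the nuclear receptor REV-ERB alpha of the clock, was at 50.9 and 56.3 in S3 and 30.01 and 34.5 in S4 (-0.72 ± 0.16), and the gene overlaps THRA on the opposite strand. POLR1G, a subunit of RNA polymerase I, was at 91.4 and 147 in S3 and 52.9 and 83.2 in S4 (-0.80 ± 0.18). PSME1, a subunit of the proteasome activator PA28, was at 260 and 263 in S3 and 165 and 98.0 in S4 (-1.04 ± 0.24). For these 3 the limma adjusted p was 0.701, and being lower in both replicates was a condition of being listed. Without S4 replicate 2 the difference of PSME1 was -1.57, with S4 resting on 1 library. DYNC2I2, C8G, PPFIA1, RWDD4, GNB3, SUMO4, PLXNB3, NKD1, SOCS1 and POLR2I followed, between -0.47 and -1.14. SUMO4 is a near copy of other SUMO genes, so that its value is uncertain.

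The difference between the late step (S4 minus S3) and the early step (S2 minus S1), which share no library, was tested in the same fit. It was called for 22 genes (0.204%), 11 with a lower and 11 with a higher late step, at limma adjusted p-values of 0.0333 to 0.0454. All 11 of the first kind had a positive early and a negative late difference, and all 11 of the second kind the reverse. Neither step alone was called for any gene. A test of the difference between steps favours genes whose steps have opposite signs, so these signs are not a separate result. Without the replicate term no gene was called, with 326 at an unadjusted p under 0.05 against 1623 with it, so that the 22 calls depend on taking differences within a replicate number. The count was also 0 without the filter on low levels, without the intensity trend, and on leaving out any single library of S2, S3 or S4 or S1 replicate 2.

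SOCS1, an inhibitor of cytokine signalling (chromosome 16, 11254417 to 11256204, GRCh38), was at 46.1 and 46.8 in S1, 110 and 128 in S2, 114 and 110 in S3 and 71.5 and 69.8 in S4. Its early difference was 1.33 ± 0.18 and its late difference -0.66 ± 0.18, a change between steps of -1.99 ± 0.26 (interval -2.56 to -1.42, limma adjusted p 0.0333). It was higher in S2 and S3 than in S1 and S4, and stood at 98.9 and 63.3 in G2.

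POLR1G was at 34.6 and 52.1 in S1 and 53.9 and 106 in S2, before the S3 and S4 levels above (-1.62 ± 0.25 between steps). NR1D1 was at 24.1 and 28.3 in S1 and 39.3 and 52.9 in S2 (-1.50 ± 0.22). FOSL1, an AP-1 subunit, was at 15.6 and 32.1 in S1, 29.8 and 70.8 in S2, 41.3 and 103 in S3 and 28.9 and 72.3 in S4 (-1.51 ± 0.23). These genes were highest in S3 in both replicates. C8G, a complement subunit made in liver, was at 34.3 and 54.1 in S1, 75.3 and 90.1 in S2, 77.1 and 81.9 in S3 and 48.9 and 42.7 in S4 (-1.70 ± 0.26).

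Others with a lower late step included CDKN1A, CABLES2, NKD1, ID1 and H2AC18, from -1.15 to -1.41. CDKN1A, the inhibitor p21 of cyclin-dependent kinases, was at 63.2 and 259 in S1, 132 and 441 in S2, 111 and 425 in S3 and 83.01 and 284 in S4. It stood several times higher in replicate 3 in every one of these fractions while its course was alike. H2AC18 has a near-identical neighbouring copy, H2AC19, which makes its value uncertain.

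On the other side, VPS37D, a subunit of an ESCRT complex, was at 62.8 and 37.9 in S1, 29.2 and 13.6 in S2, 34.6 and 20.2 in S3 and 48.7 and 32.5 in S4 (1.82 ± 0.27 between steps). ATOSA was at 43.7 and 35.1 in S1, 21.3 and 18.4 in S2, 16.2 and 12.4 in S3 and 23.5 and 27.8 in S4 (1.76 ± 0.30). CDCA7 was at 242 and 411 in S1 and at 171 and 223 in S2, so that its S4 levels were back near those of S1 (1.35 ± 0.21). PNPLA3, a lipid droplet protein of hepatocytes, was at 228 and 248 in S1, 134 and 158 in S2, 154 and 140 in S3 and 230 and 226 in S4 (1.34 ± 0.20). FHIP2A, FBXW4, TOM1L1, PIK3R1, SLC5A9, GSTK1 and PARP4 followed, from 0.95 to 1.45. Of the 15 called genes with a promoter entry, 4 held CCAAT and 1 held TTTGAA, against 37.7% and 9.79% of the genes tested.

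Mitotic entry and spindle genes had medians of -0.46 and -0.59 for the late step minus the early step, and replication-dependent histone genes -0.70, beside 0.048 over all genes. Replicate 2 held most of this. Histone genes had medians of 0.78 early and -0.50 late in replicate 2, and of 0.13 and 0.077 in replicate 3. Mitotic entry regulators had 0.71 and -0.18 in replicate 2 and 0.39 and 0.32 in replicate 3, and spindle genes 0.92 and -0.15 in replicate 2 and 0.37 and 0.30 in replicate 3. None of the mitotic or spindle members was called for it, and H2AC18 was the 1 histone member of its list that was.

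**Figure D4:**
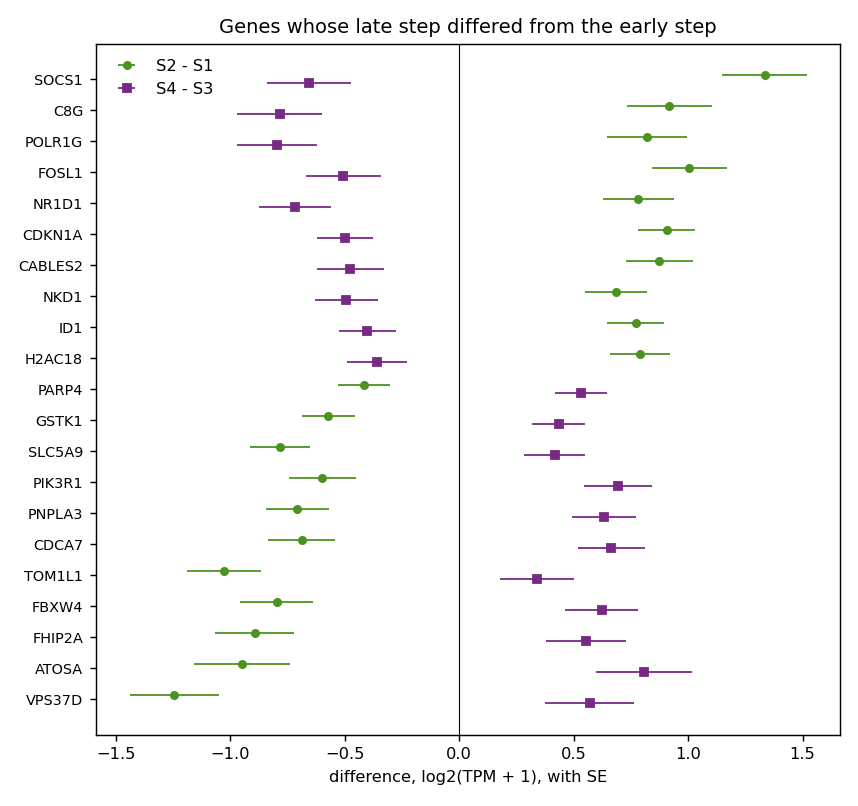
Early difference (S2 minus S1, circles) and late difference (S4 minus S3, squares) in log2(TPM + 1), each with its SE, for 21 of the 22 genes whose 2 steps differed at an adjusted p of 0.05. From SOCS1 to H2AC18 the early step is above 0 and the late step below 0, and from PARP4 to VPS37D the reverse. Choosing genes by this test favours such opposite signs.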

How the data were processed

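The authors deposited 1 file per RNA library with log2 values for 78932 gene identifiers. Back-transformed, they sum to 1e+06 in each library, so they were read as log2(TPM + 1). The design had assumed TPM, and the same tests were kept. Tools listed in the submitters' processing notes are HISAT2, BWA, SAMtools, cutadapt and Trimmomatic, with build hg38 and no roles. No source used here gives the program, the annotation or the use of strand behind the values, so overlapping genes on opposite strands are uncertain. The 3 bulk libraries and the Repli-seq samples were not used here.

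Symbols were matched for 61481 identifiers, and 19153 symbols were protein-coding in RefSeq. Each library was rescaled to 1e+06 over nuclear protein-coding genes. The 13 mitochondrial mRNAs were put on the same scale outside that total. Genes with a mean of at least 5 over the 4 libraries were tested (10792). limma 3.58.1 in R 4.3.3, with an intensity trend, fitted log2(TPM + 1) with a pseudocount of 1 to all 12 sorted libraries, with fraction and replicate number as terms, and p-values were adjusted by Benjamini-Hochberg over all genes tested at 0.05. The fit was also run on simulated data with shifts far larger than most differences seen here. That run does not show its power for differences of this size. Reads were recovered from the steps of the values in all 49864 genes detected in 3 or more libraries. Of recovered lengths, 99.4% were whole within 0.01. The unit may be a read or a pair.

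The replicate term follows the way the comparison takes differences. No label ties a number to a culture or day, and the deviations from fraction means correlated between fractions across genes at 0.545 to 0.665 over 15 pairs of fractions. Named genes were the 2 highest members of each list, the 15 of smallest p per direction among genes without overlap and with the same sign in both replicates, a fixed set of cell cycle and liver genes, and the 5 largest per direction among those called between steps. Some genes that meet these rules are not reported here. Other names were chosen after their values were seen. Members, lists and tests were chosen with earlier results of these data known. Promoters came from RefSeq (GRCh38.p14), the first entry listed per gene, and matched 8932 of the genes tested. Alternatives changed the pseudocount, filter, scaling, trend, weights, replicate term and libraries, and 4 were added after the data were seen.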

Additional observations from a re-analysis of the deposited data

Results flagged for a closer look

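The difference between the late step (S4 minus S3) and the early step (S2 minus S1) passed the test of that difference in limma for 22 genes, at adjusted p-values of 0.0333 to 0.0454, and 21 of them are given for a closer look. A lower late step, in log2(TPM + 1), was found for SOCS1 (-1.99), C8G (-1.70), POLR1G (-1.62), FOSL1 (-1.51), NR1D1 (-1.50), CDKN1A (-1.41), CABLES2 (-1.35), NKD1 (-1.18), ID1 (-1.17) and H2AC18 (-1.15). A higher late step was found for VPS37D (1.82), ATOSA (1.76), FHIP2A (1.45), FBXW4 (1.42), TOM1L1 (1.37), CDCA7 (1.35), PNPLA3 (1.34), PIK3R1 (1.29), SLC5A9 (1.1995), GSTK1 (1.01) and PARP4 (0.95).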

How the results depend on the processing

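For S4 against S3 the count of called genes was 0 in all settings run (31 beside the main one) except 2, with 1 gene for deposited TPM and a range of 0 to 1 when 1 library was left out. The 22 genes called between steps became 0 without the replicate block, 0 without the filter, 0 without the trend, 10 by quantile normalization, 13 with mitochondrial mRNAs in the total, 45 for deposited TPM (11 of 16 testable calls shared), 141 by voom with the replicate block (19 shared) and 151 by voom with median-ratio scaling and the replicate block. They were 0 in both added fits with no replicate block, by median-ratio scaling and by voom. Leaving out 1 library gave 0 to 20 calls, with 0 for each library of S2, S3 and S4 and for S1 replicate 2, 5 without S1 replicate 3, and 3 and 4 without G2 replicates 2 and 3. All of the 22 kept their direction wherever tested. Of 2493 values of named genes under alternatives, 2429 kept direction and call and 63 turned sign or fell to 0, for 30 genes. Most of these 63 came when 1 library of S3 or S4 was left out. Scaling or pseudocount turned the sign of genes near 0. These gave 1.7e-05 for TPX2 at a pseudocount of 5, and under quantile normalization 0.15 for ALB, 0.16 for AFP, 0.076 for TPX2, 0.013 for GAPDH and 0.094 for PDIA4. MT-CO1 and MT-CO3 came to exactly 0 under quantile normalization, which has no sign, and are counted among the 63. Median-ratio scaling, with or with no replicate block, gave -0.010 for CCNA2 and -0.0026 for APOA1, and with voom and the replicate block -0.012 for APOA1 and -0.0027 for MCM3. Deposited TPM gave 0.017 for TPX2 and 0.00162 for RPS21, and mitochondrial mRNAs in the total gave 0.023 and 0.0078 for these 2. Leaving out each library in turn gave ranges across 0 of -0.042 to 0.88 for CCNB1, -0.32 to 0.93 for CCNB2, -0.55 to 0.57 for CCNA2, -0.35 to 0.84 for CDK1, -0.27 to 0.64 for PLK1, -0.063 to 1.18 for AURKA, -0.91 to 0.28 for AURKB, -0.58 to 0.67 for CDC20, -0.72 to 0.54 for CENPA, -0.28 to 0.54 for TOP2A and -0.57 to 0.35 for MKI67. They were -0.39 to 0.39 for TPX2, -0.67 to 0.19 for KIF22, -0.54 to 0.30 for HMGB2, -0.64 to 0.11 for CCNE1, -0.24 to 0.12 for CDC6, -0.18 to 0.26 for PCNA, -0.24 to 0.0029 for NASP, -0.026 to 0.078 for MCM3 and -0.30 to 0.36 for H1-4. Outside the cell cycle they were -0.11 to 0.064 for ALB, -0.15 to 0.058 for AFP, -0.00158 to 0.037 for APOA1, -0.19 to 0.025 for HMGCS1, -0.13 to 0.060 for GAPDH, -0.081 to 0.014 for PDIA4, -0.048 to 0.15 for HSP90AA1, -0.11 to 0.083 for RPS21, -0.32 to 0.041 for MT-CO1 and -0.39 to 0.010 for MT-CO3. The cause of these changes was not tested.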
